A study of Mus musculus with 25 samples.

Results

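The response of mouse tibialis anterior, a fast muscle of the shin, was followed 6 hours after freezing. Frozen muscles were those titled freeze injury at 6 hours (samples 418, 432 and 446), and they were set against 3 uninjured control muscles (samples 1, 2 and 3), 6 of the 25 arrays of the series. A steel probe 6 mm wide, cooled to the temperature of dry ice, had been held on the muscle for 10 s, while control muscles had no treatment. Muscles injured by 150 eccentric contractions in vivo and taken at 6 hours (3 arrays) and muscles taken 1 day after freezing (3 arrays) were used to show where the frozen muscles at 6 hours differed. All groups were female C57BL/6J mice of 2 to 3 months with no other genotype or agent named, and each sample has 1 array. The labels do not say whether any muscles came from the same mouse, and the p-values therefore describe only how these samples vary, which may in part be technical variation.

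Freezing kills the muscle fibres that the cold reaches and leaves the connective tissue sheaths around them, so the tissue holds dead fibres, surviving fibres next to them and injured vessels. Surviving cells respond within minutes to hours with immediate early genes, whose transcription needs no new protein, with chaperones that refold damaged proteins, and with chemokines that draw in neutrophils first and monocytes after them. Regeneration by satellite cells, the stem cells of muscle, follows over days. These points are textbook background and were not measured here.

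Values are MAS5 signals, the brightness of a probe set on a linear scale, which the authors had scaled to a common level. Differences are log2 values of signal plus 13 units, tested with limma and adjusted by Benjamini-Hochberg over 9506 probe sets, and a gene was called at an adjusted p under 0.05. Signals are listed for frozen muscles 418, 432 and 446, for controls 1, 2 and 3, for contraction muscles 417, 431 and 445 and for muscles 422, 460 and 464 at 1 day, in that order. For every gene named as risen or fallen against controls, each frozen array lay beyond each control array. Adding 13 units understates changes of dim genes, and signals of different genes cannot be set against each other. The 3 frozen arrays correlated with each other at r = 0.948 to 0.961 and with controls at 0.897 to 0.931, against 0.938 to 0.957 among controls. The 3'/5' ratio of the actin control probes, a sign of RNA quality, was 0.797, 0.657 and 0.955 on the frozen arrays 418, 432 and 446, 0.572 to 0.669 after contraction and 0.560 to 0.595 in controls. Its part in the results was not tested. One array labelled freeze at 3 days, sample 436, lay among the controls (r = 0.947 to 0.952 with controls, 0.800 to 0.802 with its own group). It enters none of the group means tested here, but it does enter the shared estimate of spread and the choice of probe sets. Counts are therefore given from fits with and without it, both on the same probe sets.

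The muscles carried the fast fibre transcripts of their label. The fast myosin gene Myh4 had signals of 16301, 17085 and 14318 in frozen muscles, against 15068, 17696 and 30947 in controls, and the muscle creatine kinase gene Ckm had 3587, 4308 and 3667 in frozen muscles, against 5318, 6651 and 5764 in controls. Ckm was lower on every frozen array, though the difference did not pass the test (log2 -0.61 ± 0.56, adjusted p = 0.639).

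At 6 hours after freezing, the largest called rises exceeded the largest called falls in size. Among the 15 largest rises the mean control signal ran from 7.7 (Ccl2) to 247 (Mt2). By 1 probe set per gene, 251 of 6916 genes were called higher (3.63%) and 121 lower (1.75%), or 477 (6.9%) and 401 (5.8%) without sample 436. The counts of each gene list below are to be read beside these shares. At least an 8-fold change was found among called genes for 52 that rose and 1 that fell. The median log2 difference was 1.76 among called rises, -0.97 among called falls and -0.06 over all genes tested. On every frozen array 811 genes (11.7%) lay above all controls and 1052 (15.2%) lay below them, and most of these 1052 did not pass the test. Over probe sets the calls were 317 higher (3.33%) and 144 lower (1.51%). The total of 461 (4.85%) became 1083 (11.4%) without sample 436, 273 without frozen array 446 and 299 without control 3.

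**Figure D1:**
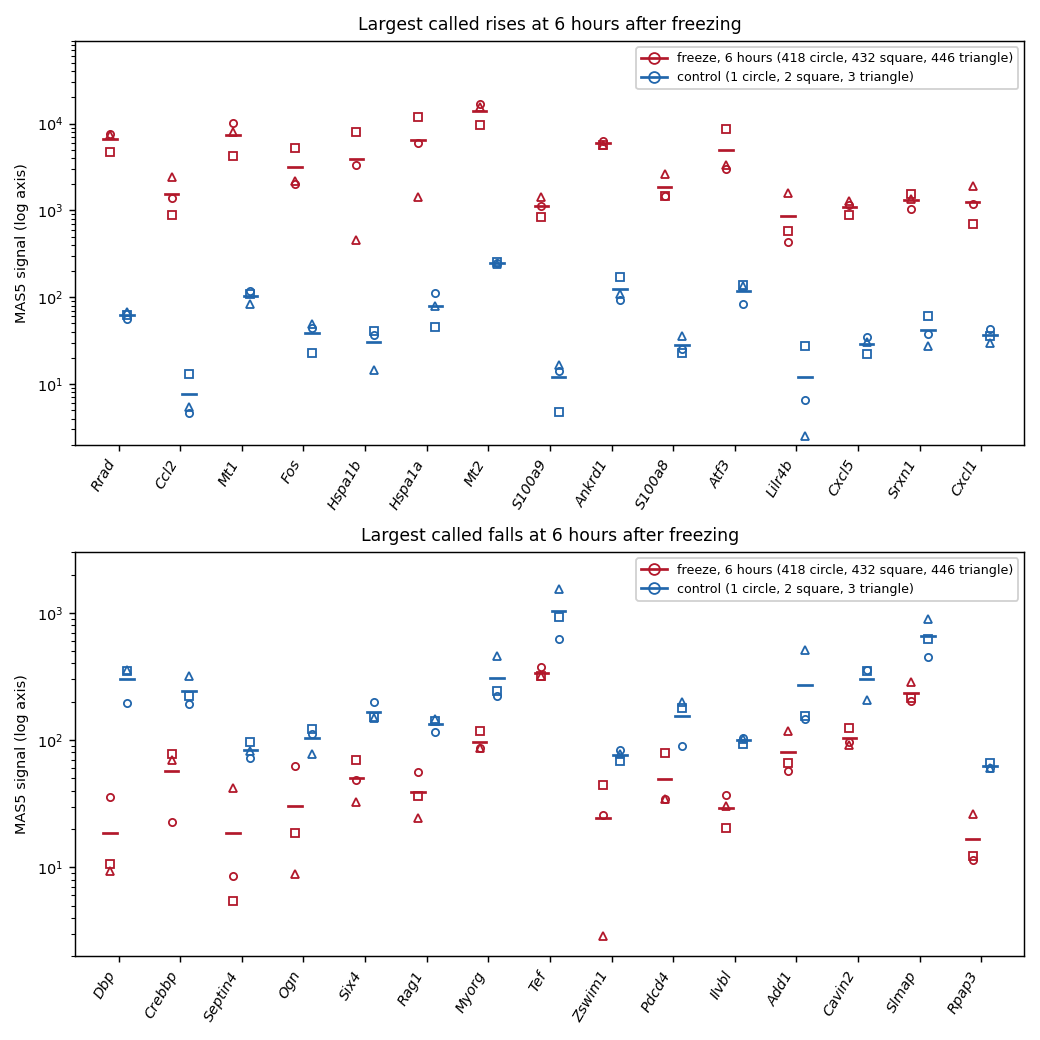
MAS5 signal on a log axis of the 15 genes with the largest called rise (top) and the 15 with the largest called fall (bottom) at 6 hours after freezing, among genes whose groups did not overlap, frozen arrays in red left of controls in blue. Each symbol is an array (n = 3 per group) and each bar the group mean. In the top panel frozen arrays lie above all controls for every gene, and Hspa1a and Hspa1b are spread widely between the 3 frozen arrays.

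Of the 15 largest rises 3 were in the lists of immediate early genes, namely Rrad, Fos and Atf3. The largest rise of all was in Rrad, which encodes a small GTPase that binds calcium channel subunits. Its signals were 7559, 4724 and 7387 in frozen muscles, against 56, 61.8 and 67.1 in controls, a change of 86.3-fold (log2 6.43 ± 0.61, adjusted p = 3.55e-07). Fos, the partner of Jun proteins in the AP-1 transcription factor, had 2035, 5259.5 and 2178 in frozen muscles, against 44.5, 23 and 49.6 in controls, and no array of one group came near the other (log2 5.83 ± 0.45, adjusted p = 1.46e-08). A second, dimmer probe set of Fos differed by 0.92 and was not called. Of the 16 AP-1, ATF and EGR genes tested 10 rose and none fell, at a list median of 1.44, and 6 did not pass the test. Atf3, a stress factor of the ATF family, had 2984, 8651 and 3364 in frozen muscles, against 83.9, 138 and 133 in controls (log2 5.11 ± 0.35, adjusted p = 2.89e-09). The zinc finger factor gene Egr1 had 2649, 1929 and 2680.1 in frozen muscles, against 122, 130 and 186 in controls (log2 3.94 ± 0.29, adjusted p = 5.19e-09). Myc, a driver of growth and ribosome synthesis, had 209, 158 and 334 in frozen muscles, against 8.2, 17.5 and 3.5 in controls (log2 3.42 ± 0.40, adjusted p = 6.29e-06). By contrast Jun itself had 165, 207 and 111 in frozen muscles, against 124, 113 and 133 in controls, and these overlapped (log2 0.31, adjusted p = 0.633).

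Of 37 other immediate early genes 21 rose and none fell, at a median of 1.46. Rcan1, an inhibitor of calcineurin that calcineurin itself induces, had 5902, 5444 and 6276 in frozen muscles, against 382, 379.8 and 356 in controls (log2 3.93 ± 0.23, adjusted p = 3.55e-10). Cebpd, a transcription factor of the acute phase, had 2777, 2239 and 2509 in frozen muscles, against 274, 147 and 171 in controls (log2 3.62 ± 0.25, adjusted p = 2.89e-09). Phlda1 had 298, 715 and 526 in frozen muscles, against 23.5, 19.4 and 22.3 in controls (log2 3.84 ± 0.31, adjusted p = 2.45e-08), and all frozen arrays stood far above the controls. Btg2, an antiproliferative gene of this list, had 3132, 3031 and 3561 in frozen muscles, against 372, 272 and 251 in controls (log2 3.40 ± 0.22, adjusted p = 1.58e-09). Outside the list, Sphk1, which makes the lipid signal sphingosine 1-phosphate, had 535, 300.5 and 487 in frozen muscles, against 11.7, 7 and 6.8 in controls (log2 4.37 ± 0.48, adjusted p = 2.84e-06).

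Of 19 genes that muscle induces under mechanical strain 4 rose and none fell, and the 4 calls were kept when any 1 of the 6 arrays was left out. Ankrd1, a titin-binding ankyrin repeat protein, had 6339, 5739.6 and 5616 in frozen muscles, against 92.5, 170.2 and 109 in controls (log2 5.47 ± 0.34, adjusted p = 1.14e-09), and its 3 frozen arrays lay within a narrow range. Xirp1, an actin-binding protein that gathers at damaged myofibrils, had 13122, 16126 and 12249 in frozen muscles, against 1149, 782 and 764 in controls (log2 3.94 ± 0.31, adjusted p = 2.33e-08). Csrp3, a Z-disc LIM protein, had 1766, 3571 and 2717 in frozen muscles, against 764, 422 and 384 in controls (log2 2.34 ± 0.31, adjusted p = 3.02e-05). Ankrd2, a relative of Ankrd1, had 3296, 2652 and 3915 in frozen muscles, against 1319, 480.4 and 430.4 in controls (log2 2.30 ± 0.39, adjusted p = 0.000592). The other 15 were not called, and the list median was 0.05, against -0.06 over all genes. Of 23 genes of the dystrophin complex and membrane repair Ahnak, a large scaffold protein of membrane repair, rose (log2 1.12) and Dag1, the gene of dystroglycan, fell (log2 -0.78). Both calls were lost when 1 array was left out, Ahnak's without 418, 446, control 1 or control 2 (adjusted p = 0.07 to 0.165) and Dag1's without 418 or 446 (adjusted p = 0.0543 to 0.0572).

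Among the heat shock chaperones the Hsp70 genes led. Hspa1a and Hspa1b encode the inducible Hsp70, and their proteins and transcripts are nearly identical, so that probe sets of one may also take up RNA of the other. Hspa1a had signals of 6026, 11839 and 1418 in frozen muscles, against 112, 45.2 and 80.2 in controls (log2 5.74 ± 0.55, adjusted p = 4.1e-07), and Hspa1b had 3366, 8044 and 462 in frozen muscles, against 36.4, 41.1 and 14.5 in controls (log2 5.81 ± 0.67, adjusted p = 4.74e-06). Array 446 was far below the other frozen arrays for both genes, yet above all controls. Hsp90aa1, the inducible cytosolic Hsp90, had 2049, 4693 and 1639 in frozen muscles, against 184, 212 and 306 in controls (log2 3.38 ± 0.49, adjusted p = 9.62e-05). The Hsp40 co-chaperone gene Dnajb4 had 764, 2249 and 493 in frozen muscles, against 141, 187 and 62.7 in controls (log2 2.86 ± 0.51, adjusted p = 0.00112). Of 29 chaperone genes tested 9 rose and none fell, at a median of 0.51, and 12 rose without sample 436. The mitochondrial chaperonin gene Hspd1 had a log2 difference of 0.14 (adjusted p = 0.899). Dnajb1, a further Hsp40 gene, had 127, 2986 and 85.2 in frozen muscles, against 64.8, 66.4 and 58.8 in controls; only array 432 carried a high signal, and the difference was not called (log2 2.18 ± 0.72, adjusted p = 0.0875).

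The 150 bases before the annotated start of both Hsp70 genes are shown because they rose together and because their arrays varied in the same order. Here and below, the start is the first one listed for each gene, and no bases outside the windows were searched. The sequences are from RefSeq (GRCm38.p6, minus strand), chr17:34972157-34972306 for Hspa1a and chr17:34959239-34959388 for Hspa1b, 5′ to 3′ up to the last base before the start. Capitals mark the heat shock element searched for on both strands, GAANNTTC or TTCNNGAA, a pair of inverted units bound by heat shock factors.
Hspa1a: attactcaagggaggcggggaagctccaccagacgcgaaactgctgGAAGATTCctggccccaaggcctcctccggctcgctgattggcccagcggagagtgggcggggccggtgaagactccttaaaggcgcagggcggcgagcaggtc
Hspa1b: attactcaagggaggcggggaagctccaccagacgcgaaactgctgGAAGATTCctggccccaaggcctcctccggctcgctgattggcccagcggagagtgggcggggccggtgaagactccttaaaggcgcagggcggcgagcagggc
The windows were identical at 149 of 150 bases. Each held 1 such element, 104 to 97 bases before the start. Of 27025 mouse promoters of the same length, 7.81% held 1 or more, so the match describes the window and does not show binding.

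Of 20 genes of the endoplasmic reticulum stress response 2 rose and none fell, at a median of 0.40, and the count was 1 to 3 when 1 array was left out. Ppp1r15a, which restarts translation by removing a stress phosphate from eIF2, had 644, 868 and 845 in frozen muscles, against 187, 119 and 139.7 in controls (log2 2.31 ± 0.22, adjusted p = 2.81e-07). The chaperone gene Hspa5 had 1179.6, 964 and 1846 in frozen muscles, against 570.2, 729 and 616 in controls (log2 1.00, adjusted p = 0.0162), and this call was lost without 446, control 1 or control 3 (adjusted p = 0.0621 to 0.14).

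The metallothionein genes Mt1 and Mt2, whose proteins bind zinc and copper, both rose. Mt1 had signals of 10111, 4228 and 8075 in frozen muscles, against 119, 110.2 and 84.1 in controls, a change of 60.4-fold (log2 5.92 ± 0.52, adjusted p = 9.37e-08). Mt2 had 16757, 9520 and 15457 in frozen muscles, against 246, 254 and 240.5 in controls (log2 5.70 ± 0.56, adjusted p = 5.47e-07), and array 432 was the lowest frozen array for both. Srxn1, which repairs oxidised peroxiredoxins, had 1052, 1544 and 1357 in frozen muscles, against 37.5, 60.4 and 27.4 in controls (log2 4.63 ± 0.33, adjusted p = 2.89e-09) by its representative probe set, while its second probe set differed by -0.23 and was not called. Hmox1, the haem-degrading enzyme, had 1825, 1239 and 1407 in frozen muscles, against 401, 272 and 356 in controls (log2 2.08 ± 0.43, adjusted p = 0.00431). Of 28 metallothionein and antioxidant genes 6 rose and none fell, and this count was 6 in each of the fits that left out 1 frozen or control array. The list median was 0.19, and 22 members were not called. Of 18 glucocorticoid-induced genes, a list that also holds Mt1, Mt2 and Cebpd, 6 rose and none fell. Angptl4, an inhibitor of lipoprotein lipase in that list, had 294, 206 and 291 in frozen muscles, against 94.4, 79.2 and 72.9 in controls (log2 1.53 ± 0.34, adjusted p = 0.00753), while 2 of its 4 probe sets were not called.

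The promoter windows of both metallothionein genes are shown because these neighbours on chromosome 8 rose alike. Capitals mark the metal response element, TGCACNC or TGCGCNC on either strand, the site of the zinc sensor MTF1. The windows lie at chr8:94178939-94179088 (Mt1) and chr8:94172468-94172617 (Mt2), plus strand, GRCm38.p6, RefSeq.
Mt1: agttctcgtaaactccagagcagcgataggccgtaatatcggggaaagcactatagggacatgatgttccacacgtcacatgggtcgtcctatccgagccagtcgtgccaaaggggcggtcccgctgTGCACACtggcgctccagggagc
Mt2: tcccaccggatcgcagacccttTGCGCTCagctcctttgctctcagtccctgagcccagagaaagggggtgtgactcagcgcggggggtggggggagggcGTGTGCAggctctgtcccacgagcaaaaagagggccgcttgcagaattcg
Within these windows Mt1 held 1 element, 23 to 17 bases before the start, and Mt2 held 2, at 128 to 122 and 50 to 44 bases before it. Elements beyond the windows or near other starts of these genes were not counted. Of the 27025 promoter windows 14.7% held 1 or more.

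Chemokine genes rose strongly, and they attract different leukocytes. Ccl2, the main monocyte chemokine, had signals of 1395, 878 and 2394 in frozen muscles, against 4.6, 13 and 5.5 in controls, near the floor of the array in controls (log2 6.15 ± 0.86, adjusted p = 5.7e-05). Ccl7, a second monocyte chemokine, had 393, 210.4 and 536 in frozen muscles, against 21.2, 16.7 and 25.2 in controls (log2 3.44 ± 0.54, adjusted p = 0.000261). Of 13 CC chemokine genes 6 rose and none fell, at a median of 1.23. Ccl9 had 819, 641 and 952 in frozen muscles, against 81.5, 63.9 and 69.5 in controls and Ccl4 had 144, 72.4 and 186 in frozen muscles, against 12.7, 7.6 and 66.8 in controls. The call of Ccl9 (adjusted p = 0.0117) was lost without 446 (adjusted p = 0.0582), and that of Ccl4 (adjusted p = 0.0182) was lost without 418, 446, control 1 or control 2 (adjusted p = 0.0752 to 0.113). Of 10 CXC and CX3C chemokine genes 4 rose and none fell, at a median of 1.04. The neutrophil chemokine Cxcl5 had 1166, 881 and 1275 in frozen muscles, against 35, 22.2 and 30.5 in controls (log2 4.72 ± 0.58, adjusted p = 1.16e-05). Cxcl1 had 1178, 692 and 1912 in frozen muscles, against 43.6, 35.5 and 29.6 in controls (log2 4.58 ± 0.52, adjusted p = 3.81e-06) and Cxcl2 had 325, 204 and 710.5 in frozen muscles, against 24.7, 11.2 and 20.6 in controls (log2 3.59 ± 0.47, adjusted p = 2.42e-05), and both bind the neutrophil receptor Cxcr2. The interferon-inducible Cxcl10 had 49.2, 77.6 and 56.8 in frozen muscles, against 6.4, 18.2 and 3.6 in controls, with frozen arrays above all controls, but its call (log2 1.76, adjusted p = 0.0272) was lost without 418, 432, 446, control 1 or control 3 (adjusted p = 0.0562 to 0.129). Array 446 was the highest for 9 of these 10 called chemokines, the exception being Cxcl10.

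Of 11 chemokine receptor genes 2 rose and none fell. Ccr1, a receptor for CC chemokines on myeloid cells, had 169, 131 and 191 in frozen muscles, against 25.9, 6.2 and 42.6 in controls (log2 2.34 ± 0.47, adjusted p = 0.00364). Cxcr2 had 68, 65.5 and 84 in frozen muscles, against 27.1, 18 and 24.3 in controls (log2 1.24, adjusted p = 0.0237), and its call was lost without 418, 446, control 2 or control 3 (adjusted p = 0.0617 to 0.11).

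Interleukin genes changed in the same direction, agonist and antagonist together. Il1b, an early inflammatory cytokine, had 362, 410.5 and 738 in frozen muscles, against 9.6, 6.2 and 16.1 in controls (log2 4.40 ± 0.65, adjusted p = 0.000119). Il1rn, the soluble antagonist of the interleukin 1 receptor, had 239.8, 235 and 578 in frozen muscles, against 54.3, 20.6 and 8.5 in controls (log2 3.19 ± 0.64, adjusted p = 0.00304). Il1r2, a decoy receptor that takes up the cytokine without signalling, had 271, 421 and 307 in frozen muscles, against 48.9, 49.7 and 36.7 in controls (log2 2.56 ± 0.32, adjusted p = 1.16e-05). Ptx3, a pentraxin of innate immunity, had 759.6, 291 and 432 in frozen muscles, against 92.7, 90.9 and 78.5 in controls (log2 2.23 ± 0.38, adjusted p = 0.000576). Of 16 genes of the interleukin 1 and TNF systems 5 rose and none fell, at a median of 1.02.

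Il6, a cytokine that muscle and immune cells make, had 358, 155 and 828 in frozen muscles, against 2.9, 14.8 and 15.7 in controls (log2 4.00 ± 0.53, adjusted p = 2.52e-05), with array 446 the highest and 432 the lowest of the frozen arrays. Socs3, the feedback inhibitor of its receptor, had 658, 473 and 785 in frozen muscles, against 60.3, 55.8 and 35.3 in controls (log2 3.35 ± 0.35, adjusted p = 1.08e-06). Il4ra, a receptor chain for interleukins 4 and 13, had 448, 269 and 463 in frozen muscles, against 17.1, 24.1 and 12.7 in controls (log2 3.69 ± 0.67, adjusted p = 0.0013), but its second probe set differed by -0.37 and was not called. Osmr, the oncostatin M receptor, had 324, 181 and 422 in frozen muscles, against 54, 55.3 and 106 in controls (log2 1.90 ± 0.35, adjusted p = 0.00167). The related receptor gene Lifr was lower, at 89.6, 94.8 and 119.5 in frozen muscles, against 157, 197 and 240.2 in controls; its call (log2 -0.88, adjusted p = 0.0459) was lost without 418, 432, 446, control 2 or control 3 (adjusted p = 0.0686 to 0.192), and 3 of its 4 probe sets were not called. In the interleukin 6 and JAK-STAT list 6 of 21 genes rose and 1 fell.

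Of 22 genes of the NF-kappaB pathway 5 rose and none fell. Among the 5 is Cd14, which is also in the list of monocyte and macrophage markers and is described there. The inhibitor gene Nfkbia, itself a target of NF-kappaB, had 665, 651 and 744 in frozen muscles, against 412, 364 and 248 in controls (log2 1.01 ± 0.19, adjusted p = 0.00185), and Nfkbiz had 135, 83.4 and 145 in frozen muscles, against 27.3, 32.2 and 48.7 in controls (log2 1.44 ± 0.25, adjusted p = 0.000711). Bcl3, a further member of the inhibitor family, had 162, 137 and 289.9 in frozen muscles, against 23.3, 70.9 and 33.2 in controls (log2 1.94, adjusted p = 0.0181), and its call was lost without 446, control 1 or control 3 (adjusted p = 0.0773 to 0.122). The list count was 3 to 5 when 1 array was left out, with the lowest counts without 446, control 1 or control 3. The list median was 0.26.

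The windows of Cxcl1, Cxcl2 and Il6 are shown because these cytokine genes rose together and NF-kappaB sites in them are well known. Capitals mark matches to the NF-kappaB site on either strand. The windows lie on the plus strand of GRCm38.p6 (RefSeq) at chr5:90891095-90891244 (Cxcl1), chr5:90903749-90903898 (Cxcl2) and chr5:30012964-30013113 (Il6).
Cxcl1: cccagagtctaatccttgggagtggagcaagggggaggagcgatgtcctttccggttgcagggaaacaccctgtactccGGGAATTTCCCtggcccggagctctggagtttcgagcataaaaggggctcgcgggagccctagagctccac
Cxcl2: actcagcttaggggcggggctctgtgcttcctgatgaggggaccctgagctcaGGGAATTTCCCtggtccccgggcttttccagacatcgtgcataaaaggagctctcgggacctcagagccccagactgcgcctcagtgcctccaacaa
Il6: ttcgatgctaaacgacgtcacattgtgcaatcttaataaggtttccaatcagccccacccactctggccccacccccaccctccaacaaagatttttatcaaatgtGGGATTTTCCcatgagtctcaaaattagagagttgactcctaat
Cxcl1 and Cxcl2 shared the same run of capitals, in which 2 matches overlap by all but 1 base, and it begins 71 bases before the start in Cxcl1 and 97 bases before it in Cxcl2. Il6 held 1 match, 44 to 35 bases before the start. Of the 27025 promoter windows 2.26% held 1 or more.

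Some markers of neutrophils and monocytes were higher in the frozen muscles. In whole tissue, more cells of a type and more RNA per cell cannot be told apart. S100a8 and S100a9, whose proteins form calprotectin in neutrophils and monocytes, had 1447, 1475 and 2644 in frozen muscles, against 25.1, 22.5 and 36.2 in controls (S100a8) and 1125, 831 and 1431 in frozen muscles, against 14.3, 4.8 and 16.6 in controls (S100a9). They rose by 5.47 ± 0.63 and 5.52 ± 0.63 on the log2 scale (adjusted p = 4.9e-06 and 4.58e-06). Mmp9, a gelatinase of neutrophil granules, had 65.5, 66 and 97.8 in frozen muscles, against 15, 10.7 and 9.2 in controls (log2 1.85 ± 0.36, adjusted p = 0.00292), and the haptoglobin gene Hp had 269.6, 298 and 382 in frozen muscles, against 99.3, 122 and 127 in controls (log2 1.34 ± 0.27, adjusted p = 0.00384). Of 14 neutrophil markers 6 rose and none fell. The summed signal of all 14 was 3480 to 5318 in frozen muscles, against 834 to 1129 in controls. S100a8 and S100a9 carry a large part of the sum in frozen muscles, so it does not describe the list as a whole. Other neutrophil markers were not called. Mpo, the myeloperoxidase gene, had 15.2, 13.8 and 34.6 in frozen muscles, against 60.8, 53.1 and 41.9 in controls and Camp, the cathelicidin gene, had 45.4, 57.5 and 76.6 in frozen muscles, against 96.3, 98.6 and 79.1 in controls, below all controls (adjusted p = 0.271 and 0.515).

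Of 30 monocyte and macrophage markers 3 rose and none fell with all arrays, at a list median of 1.11. The count was 17 without sample 436, and 1 without frozen array 446 or control 3. For 21 of the 30 every frozen array lay above every control, against 11.7% of all genes. Their summed signal was 4663 to 7490 in frozen muscles, against 1494 to 1867 in controls. Cd14, the endotoxin co-receptor, had 1109, 899 and 1669.6 in frozen muscles, against 216, 198 and 165 in controls (log2 2.55 ± 0.40, adjusted p = 0.00026). The pan-leukocyte tetraspanin gene Cd53 had 217, 192 and 520 in frozen muscles, against 1.9, 3.2 and 2.7 in controls (log2 4.23, adjusted p = 0.014), and its call was lost without 446 or control 3 (adjusted p = 0.0521 to 0.0858). Tyrobp, an adaptor of myeloid receptors, had 261, 249 and 415 in frozen muscles, against 12.5, 28.2 and 4.2 in controls, and its call (adjusted p = 0.0311) was lost without any single one of the 6 arrays (adjusted p = 0.0516 to 0.133). Lyz2, the macrophage lysozyme, had 253, 418 and 1062 in frozen muscles, against 79.5, 92.1 and 37.2 in controls without a call (log2 2.66, adjusted p = 0.187). The resident and mature macrophage markers Mrc1, Csf1r and C1qa showed no rise that passed the test. Mrc1 had 27.8, 29.9 and 40.8 in frozen muscles, against 35.8, 25.3 and 46 in controls. Csf1r had 69.1, 102 and 114 in frozen muscles, against 111, 77.1 and 76.9 in controls. C1qa had 37.8, 57.5 and 60.5 in frozen muscles, against 91.1, 99.4 and 86.1 in controls. Csf1r and C1qa were chosen after their values were seen, and these genes do not stand for the list, in which 26 of 30 differences were above 0.

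Lilr4b, an inhibitory receptor of myeloid cells, was among the 15 largest rises with 434, 578 and 1603 in frozen muscles, against 6.5, 27.4 and 2.5 in controls (log2 5.03 ± 1.00, adjusted p = 0.003). Slfn4, a schlafen gene of myeloid cells, had 718, 440.1 and 928 in frozen muscles, against 33.2, 40.5 and 31.8 in controls (log2 3.82 ± 0.72, adjusted p = 0.00185). It was the 1 call among 35 interferon and antigen presentation genes, where 3.63% of all genes were called higher. Without sample 436 there were 7, where 6.9% of all genes were called higher. Hdc, which makes histamine in mast cells and neutrophils, had 233, 246 and 556 in frozen muscles, against 4.9, 9.9 and 4.4 in controls (log2 4.10 ± 0.53, adjusted p = 1.84e-05); it was the 1 of 5 mast cell markers to rise. None of 11 T, B and NK cell markers was called, and their summed signal was 734 to 752 in frozen muscles and 854 to 941 in controls. Of 5 erythroid markers none was called, and their summed signal was 7012 to 12058 in frozen muscles, against 2986 to 4603 in controls. The 13 epidermal markers, of which none was called, summed to 3378 to 3936 in frozen muscles, against 2037 to 3085 in controls. Their part in the results was not tested.

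Some genes of activated endothelium rose. Selp, the P-selectin on which neutrophils roll along activated endothelium, had 335, 156 and 315 in frozen muscles, against 6.8, 7.2 and 12.3 in controls (log2 3.63 ± 0.37, adjusted p = 7.48e-07). Thbd, the endothelial thrombomodulin that restrains clotting, had 859, 369 and 836 in frozen muscles, against 48.2, 39.7 and 46.4 in controls (log2 3.51 ± 0.37, adjusted p = 1.2e-06). Nos3, the endothelial nitric oxide synthase, had 259, 172 and 356 in frozen muscles, against 23.7, 36.7 and 60.7 in controls (log2 2.37 ± 0.40, adjusted p = 0.000541). Of 20 adhesion and endothelial activation genes 5 rose and none fell, at a median of 0.80, and 3 rose without array 446. Of 18 general endothelial markers 2 rose and none fell (4 without array 432, and 1 without 418, 446, control 1 or control 3), with a median of -0.17 and a summed signal of 5282 to 6911 in frozen muscles, against 4327 to 4615 in controls.

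Of 17 genes of clotting and fibrinolysis 4 rose and none fell. Plaur, the urokinase receptor, had 185, 157 and 371 in frozen muscles, against 10, 9.2 and 9.6 in controls (log2 3.37 ± 0.60, adjusted p = 0.00101). Procr, the endothelial protein C receptor, had 222, 117 and 311 in frozen muscles, against 67.7, 49.6 and 43.6 in controls (log2 1.70 ± 0.32, adjusted p = 0.00182), Fgl2, a prothrombinase, had 356, 216 and 332 in frozen muscles, against 39, 40.1 and 53.6 in controls (log2 2.43 ± 0.52, adjusted p = 0.00624), and the protease inhibitor gene Serpina3n had 582, 259 and 344 in frozen muscles, against 129.8, 68.8 and 103 in controls (log2 1.81 ± 0.31, adjusted p = 0.00081). Mmp3, a stromelysin of fibroblasts, had 340.5, 123 and 362 in frozen muscles, against 14.2, 13.2 and 20.8 in controls (log2 3.18 ± 0.34, adjusted p = 1.88e-06). Its inhibitor Timp1 had 1098, 712 and 1274 in frozen muscles, against 141, 139 and 157 in controls (log2 2.68 ± 0.46, adjusted p = 0.000675). With Mmp9 and Adam8 they made up the 4 of 19 metalloproteinase genes and inhibitors that rose, while the call of Adam8 (log2 3.67, adjusted p = 0.0156) was lost without 418, 446, control 1 or control 3 (adjusted p = 0.0528 to 0.0888). Of 37 collagen and matrix genes 1 rose, the hyaluronan receptor Cd44 (log2 2.22 ± 0.50, adjusted p = 0.00921), and its call was lost without 446 (adjusted p = 0.0725). Without sample 436, 6 of these 37 rose, where 6.9% of all genes did so.

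Of 34 growth factor and receptor genes 5 rose and none fell. Ccn1, a matricellular protein of early wounds, had 360.2, 1037 and 408 in frozen muscles, against 53.8, 61.3 and 45.9 in controls (log2 3.05 ± 0.28, adjusted p = 1.8e-07), and its relative Ccn2 had 342, 130.1 and 396 in frozen muscles, against 29, 13.9 and 52.4 in controls (log2 2.71 ± 0.54, adjusted p = 0.003). Hbegf, a ligand of the EGF receptor, had 372, 469 and 503 in frozen muscles, against 115, 102 and 100.4 in controls (log2 1.95 ± 0.24, adjusted p = 9.88e-06). Of 41 TGF-beta, BMP, activin and Wnt genes 4 rose and 2 fell, at a median of 0.09. Tgif1, a repressor of TGF-beta targets, had 442, 152 and 465 in frozen muscles, against 52.9, 31.2 and 57.4 in controls (log2 2.48 ± 0.54, adjusted p = 0.00639). Fst, the activin and myostatin antagonist follistatin, had 31.5, 57.2 and 102 in frozen muscles, against 5.2, 4.7 and 6.7 in controls (log2 1.94, adjusted p = 0.00501), and its call was lost without 446 (adjusted p = 0.0521). Smad1 rose by 1.24 (adjusted p = 0.0039), while the inhibitory Smad6 had 109, 121 and 82.8 in frozen muscles, against 261, 182 and 249.5 in controls, a difference of -1.06 whose call (adjusted p = 0.018) was lost without 418, 446, control 1 or control 3 (adjusted p = 0.0504 to 0.11). Acvr2b, an activin receptor gene, was the other fall (log2 -1.05, adjusted p = 0.0414), and its call was lost without 418, 432, 446, control 1 or control 3 (adjusted p = 0.0783 to 0.149). The list had 2 rises without array 446, and no falls without 418, 446 or control 3.

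Genes of growth arrest and of growth were both among the rises. Gadd45g had 866, 1976 and 1231 in frozen muscles, against 200, 140.3 and 209 in controls (log2 2.74 ± 0.30, adjusted p = 1.88e-06) and Gadd45a had 2256, 814 and 1533 in frozen muscles, against 278, 251 and 213 in controls (log2 2.46 ± 0.45, adjusted p = 0.00124), both stress-induced inhibitors of the cell cycle. The growth arrest transcript Gas5 had 999, 674 and 1022 in frozen muscles, against 383, 379.8 and 232 in controls (log2 1.41 ± 0.24, adjusted p = 0.000675). In this list of 22 p53 and growth arrest genes 5 rose and 1 fell, and 3 rose without array 446 or control 3. The fall was that of Ei24, a p53 target (log2 -1.0, adjusted p = 0.015). Its call was lost without 432, 446 or control 3 (adjusted p = 0.0518 to 0.117). The cell cycle inhibitor gene Cdkn1a, also a p53 target, was called higher (log2 1.43 ± 0.40, adjusted p = 0.0411). The call of Cdkn1a was lost without 418, 432, 446, control 2 or control 3 (adjusted p = 0.0695 to 0.142). A second probe set of Cdkn1a differed by 3.06 (adjusted p = 0.000783). Odc1, the rate-limiting enzyme of polyamine synthesis, had 382, 279 and 326 in frozen muscles, against 138, 121 and 135 in controls (log2 1.23 ± 0.20, adjusted p = 0.000382), and Arg1, which supplies its substrate ornithine, had 99.9, 42.2 and 63.7 in frozen muscles, against 9.1, 5.1 and 4.2 in controls (log2 2.04 ± 0.43, adjusted p = 0.00501). Of 13 polyamine and arginine genes 6 rose and none fell, and this count was 2 without array 446 and 3 without control 1. Of 30 genes of the nucleolus and ribosome assembly 6 rose and none fell, at a median of 0.40, among them Nop58, a core protein of small nucleolar RNPs (log2 1.86 ± 0.30, adjusted p = 0.000407), and the translation repressor Eif4ebp1 (log2 1.38 ± 0.21, adjusted p = 0.000226). In 26 of these 30 the difference was above 0.

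Myogenic regulators changed in both directions. Myod1 had 2679, 2212 and 2922 in frozen muscles, against 334, 221 and 266 in controls (log2 3.20 ± 0.40, adjusted p = 1.29e-05) and Myf6 had 2916, 2608 and 2501 in frozen muscles, against 414, 364 and 211 in controls (log2 3.02 ± 0.35, adjusted p = 4.9e-06), both transcription factors of the muscle lineage. Sdc4, a syndecan of satellite cells, had 803, 714 and 982 in frozen muscles, against 329.6, 241 and 259.6 in controls (log2 1.55 ± 0.21, adjusted p = 3.65e-05). Six4, a homeobox factor that acts upstream of the myogenic genes, fell to 48.7, 69.1 and 32.4 in frozen muscles, against 198, 152 and 149.5 in controls (log2 -1.54 ± 0.25, adjusted p = 0.000382), and 2 other probe sets of Six4 differed by -0.42 and -0.91 without a call. Mef2d, a partner of the myogenic factors, had 852, 1015 and 917 in frozen muscles, against 1804, 1733 and 3574 in controls, and its call (log2 -1.26, adjusted p = 0.0148) was lost without 418, 446 or control 3 (adjusted p = 0.06 to 0.122). In all 3 of 28 myogenic and satellite cell genes rose and 2 fell.

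The largest fall was in the circadian output gene Dbp, a transcription factor whose level cycles over the day in most tissues. Dbp had 35.9, 10.6 and 9.3 in frozen muscles, against 196, 349.5 and 355 in controls (log2 -3.36 ± 0.40, adjusted p = 7.67e-06). Tef, a factor of the same PAR bZIP family, had 377, 316 and 320.4 in frozen muscles, against 626, 929 and 1537 in controls (log2 -1.48 ± 0.31, adjusted p = 0.00431). Nfil3, a repressor that binds the same DNA sites, moved the other way, with 356, 460.4 and 417 in frozen muscles, against 67.1, 43.8 and 57 in controls (log2 2.63 ± 0.28, adjusted p = 1.57e-06). The core clock genes were not called: Arntl had a log2 difference of 0.76 (adjusted p = 0.144), Clock -0.14 (adjusted p = 0.836), Cry1 0.46 (adjusted p = 0.321) and Nr1d1 -0.09 (adjusted p = 0.941). Per1 had 234, 324 and 327 in frozen muscles, against 114, 131 and 140.5 in controls, just outside the threshold (log2 1.11 ± 0.32, adjusted p = 0.0513). The time of day of sampling is not given in the sources used here, and its part in these values was not tested.

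Other falls concerned single genes of varied function. Crebbp, a histone acetyltransferase and co-activator, had 22.6, 78.3 and 70.3 in frozen muscles, against 192, 220.5 and 321 in controls (log2 -1.96 ± 0.35, adjusted p = 0.00108), the 1 call among 35 nuclear receptors and co-regulators. Septin4, a cytoskeletal GTPase, had 8.6, 5.4 and 41.6 in frozen muscles, against 71.7, 96.5 and 82.6 in controls (log2 -1.78 ± 0.35, adjusted p = 0.00251), and Pdcd4, an inhibitor of translation initiation, had 34.6, 78.4 and 34.2 in frozen muscles, against 89.2, 179 and 199 in controls (log2 -1.45 ± 0.29, adjusted p = 0.003). Cavin2, a coat protein of caveolae, had 97.3, 124 and 91 in frozen muscles, against 356, 348 and 207 in controls (log2 -1.41 ± 0.31, adjusted p = 0.00705). Slmap, a membrane protein of the sarcolemma, had 202, 214 and 287 in frozen muscles, against 450.5, 625 and 900.4 in controls (log2 -1.40 ± 0.28, adjusted p = 0.003). Ogn, a small proteoglycan of the matrix, had 62.7, 18.7 and 8.9 in frozen muscles, against 111, 122 and 77.5 in controls, and it was the 1 of 20 fibroblast markers to fall, with a call (adjusted p = 0.0187) that was lost without 432, 446, control 1 or control 2 (adjusted p = 0.0656 to 0.149). Of the remaining 6 falls named by rule, those of Rag1, Myorg and Add1 were also lost when single arrays were left out, Rag1's without any 1 of the 6 arrays (adjusted p = 0.0536 to 0.200). Myorg's was lost without 418, 446 or control 3 (adjusted p = 0.0618 to 0.112), and Add1's without 418, 432 or control 3 (adjusted p = 0.128 to 0.278).

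With all arrays, contractile and metabolic genes gave almost no calls, with list medians mostly below that of all genes. Of 18 fast fibre genes none was called, 17 differences were below 0 and the median was -0.37, against -0.06 over all genes. The Z-disc gene Actn3 had 11745, 12031 and 10149.6 in frozen muscles, against 11175, 14182 and 24729 in controls (log2 -0.48, adjusted p = 0.706). Of 23 glycolysis and glycogen genes 1 fell, at a median of -0.36, namely Gpd2, the mitochondrial glycerol phosphate dehydrogenase, whose call (log2 -1.0, adjusted p = 0.0272) was lost without 418, 432, 446, control 2 or control 3 (adjusted p = 0.0587 to 0.116). None of 18 calcium handling and ion channel genes (median -0.34), 37 genes of fatty acid oxidation and the TCA cycle (median -0.23) or 48 respiratory chain genes (median -0.10) was called. In 9 slow fibre genes the median was 0.12 and in 12 genes of the acetylcholine receptor and synapse it was -0.18, with no call in either. Without sample 436, when 5.8% of all genes were called lower, there were 3 called falls each among the 18 fast fibre, 18 calcium handling and 23 glycolysis genes, 2 among the 37 genes of fatty acid oxidation and the TCA cycle and none among the 48 respiratory chain genes. The glucose transporter gene Slc2a1 had 116, 70.1 and 136 in frozen muscles, against 20.2, 11.2 and 31.7 in controls (log2 1.82, adjusted p = 0.0124), with a call lost without 418, 446 or control 2 (adjusted p = 0.0536 to 0.0774). In the list of ubiquitin ligases and autophagy 1 of 28 genes rose and 1 fell, where 3.63% and 1.75% of all genes did so. The rise was that of the autophagosome gene Gabarapl1, with 901, 758 and 695 in frozen muscles, against 302, 274 and 226 in controls (log2 1.51 ± 0.19, adjusted p = 1.09e-05). The fall was that of the ubiquitin ligase gene Nedd4 (log2 -0.71, adjusted p = 0.0324), and its call was lost without 418, 446, control 1, control 2 or control 3 (adjusted p = 0.0538 to 0.139).

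**Figure D2:**
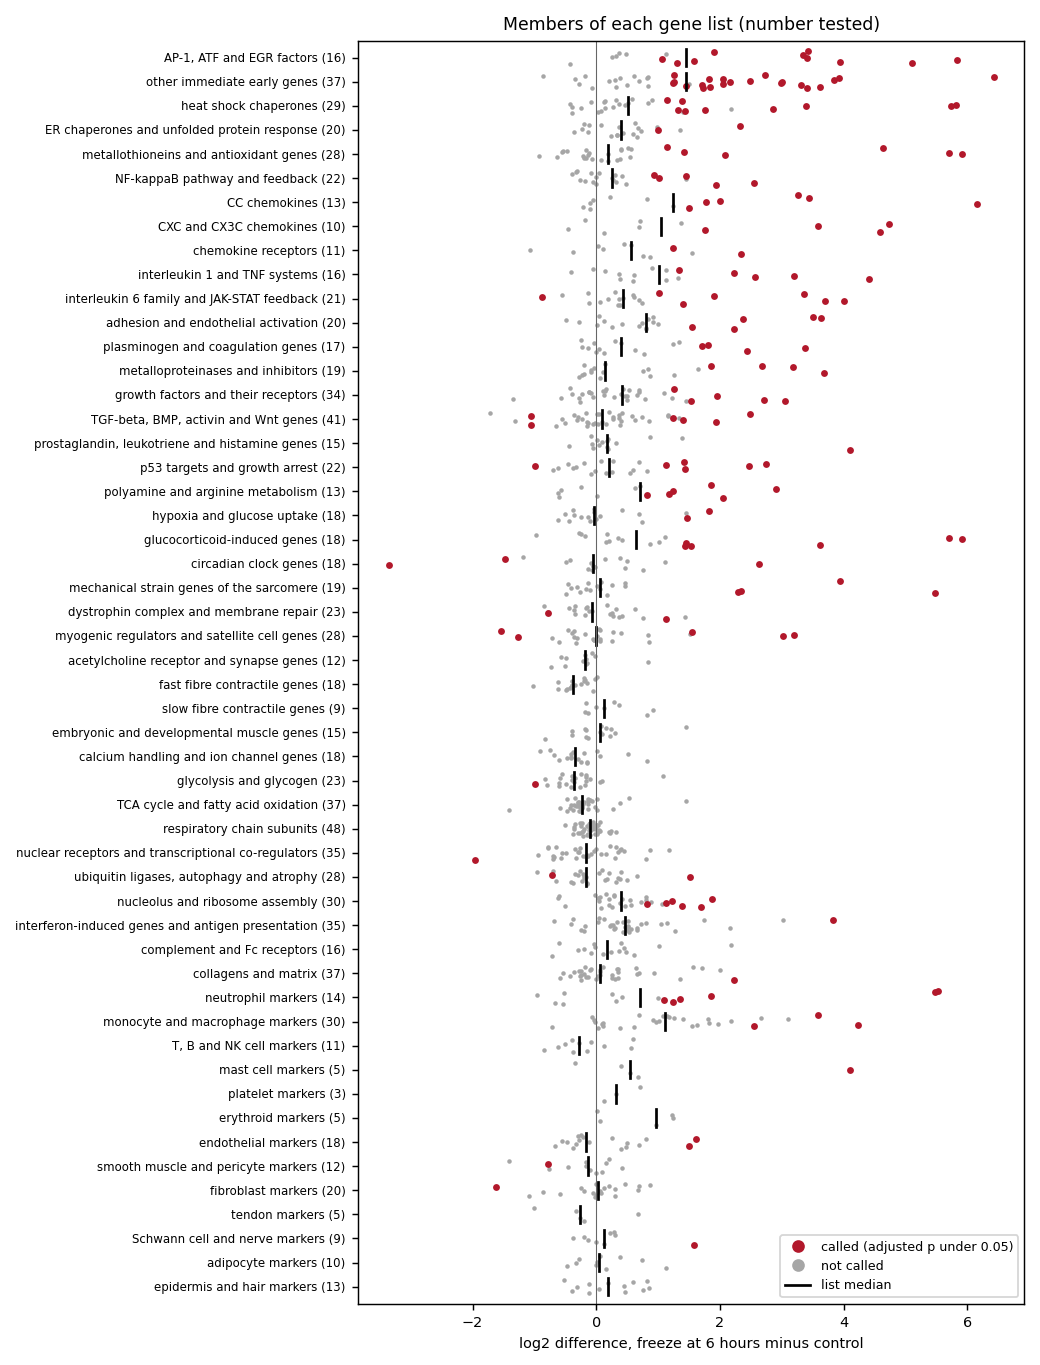
Log2 difference of freeze at 6 hours minus control for every tested member of each gene list, with the number tested in brackets. Red points are genes called at an adjusted p under 0.05, grey points are genes not called and black bars are list medians. The red points lie mostly right of 0 in the stress, chemokine and myeloid lists, while the contractile and metabolic lists hold nearly only grey points, with medians left of 0 except in the slow fibre and the embryonic lists (0.12 and 0.05).

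The 3 frozen muscles differed in which genes were highest. All 9 called heat shock chaperones were highest on array 432 and lowest on 446. Of the 251 genes called higher, 155 were highest on array 446 and 161 were lowest on 432. All 6 called CC chemokines and all 5 called NF-kappaB genes were highest on 446, as were 17 of 21 called immediate early genes outside the AP-1, ATF and EGR list. Of the 10 called AP-1, ATF and EGR genes 5 were highest on 446 and 3 on 432, while 7 were lowest on 432 and none on 446. Fos and Atf3 were highest on 432 and lowest on 418. Among the 121 genes called lower, the lowest array was 418 for 42, 432 for 34 and 446 for 45. The actin 3'/5' ratio also ordered the arrays, 0.955 on 446, 0.797 on 418 and 0.657 on 432, and its part in this pattern was not tested.

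**Figure D3:**
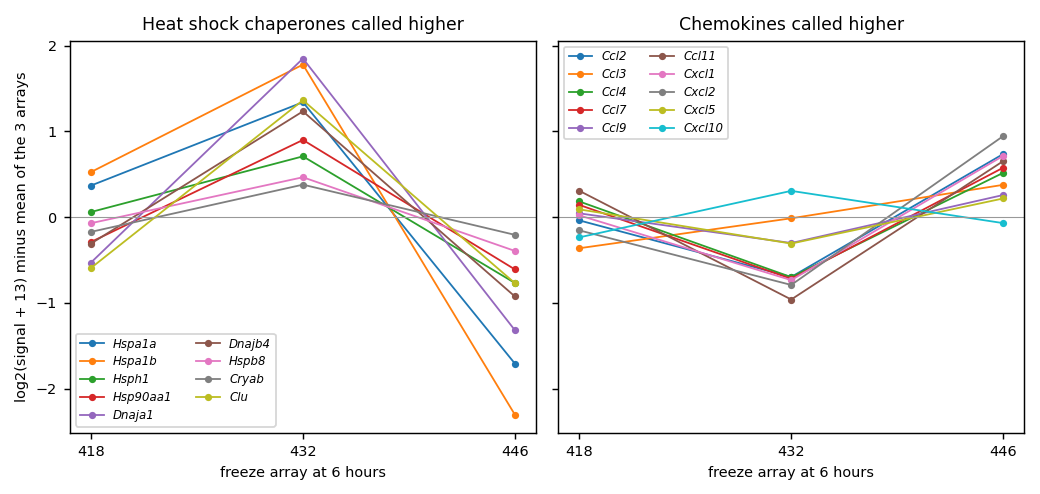
Log2 of signal plus 13, minus the mean of the 3 frozen arrays, for the 9 heat shock chaperones (left) and the 10 chemokines (right) called higher at 6 hours, by frozen array. Each line joins the values of 1 gene, so that it can be followed across arrays. All chaperones are highest on 432 and lowest on 446, while most chemokines are lowest on 432 and highest on 446.

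Freezing was next set against eccentric contraction at the same time. This comparison uses the same frozen arrays as the one with controls, and its calls were few and changed with single arrays. By 1 probe set per gene 19 genes were higher after freezing (0.275%) and 5 lower (0.0723%), or 139 (2.01%) and 42 (0.607%) without sample 436. Over probe sets 29 were called (0.305%), or 224 without sample 436 (2.36%), and the 29 became 0 without frozen array 446, 4 without 418 and 83 without 432. It was 1 without contraction array 417, 2 without 445 and 49 without 431. The 14 genes named by rule are described, of the 24 called. Each of these 14 calls was lost without 446, 418 or 417, at adjusted p = 0.0647 or more. At an unadjusted p under 0.05, 595 genes differed.

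Among the genes higher after freezing were calprotectin, cytokine and chemokine genes. S100a9 had 1125, 831 and 1431 after freezing, against 32, 480.4 and 26 after contraction (log2 3.55 ± 0.63, adjusted p = 0.0207), S100a8 had 1447, 1475 and 2644 after freezing, against 52.6, 803 and 67.5 after contraction (log2 3.46 ± 0.63, adjusted p = 0.0207) and Il1b had 362, 410.5 and 738 after freezing, against 10, 277 and 5.9 after contraction (log2 3.29 ± 0.65, adjusted p = 0.03). On array 431 all 3 genes were well above the other contraction arrays, though still below every frozen array. Cxcl5 had 1166, 881 and 1275 after freezing, against 72.9, 489 and 55.9 after contraction (log2 2.95 ± 0.58, adjusted p = 0.03) and Cxcl2 had 325, 204 and 710.5 after freezing, against 37.4, 203 and 30 after contraction (log2 2.28 ± 0.47, adjusted p = 0.0371). Mmp3 had 340.5, 123 and 362 after freezing, against 39.7, 68.4 and 28.2 after contraction (log2 2.22 ± 0.34, adjusted p = 0.00864) and Thbd had 859, 369 and 836 after freezing, against 108, 320.4 and 71.1 after contraction (log2 2.13 ± 0.37, adjusted p = 0.0194). Bcl3 had 162, 137 and 289.9 after freezing, against 24.3, 37.8 and 24.8 after contraction (log2 2.26 ± 0.48, adjusted p = 0.0451), and no contraction array lay above all the controls for this gene. Hdc had 233, 246 and 556 after freezing, against 30.1, 151 and 10.1 after contraction (log2 2.60 ± 0.53, adjusted p = 0.0369), and Cd14 had 1109, 899 and 1669.6 after freezing, against 231, 609.8 and 175 after contraction (log2 1.97 ± 0.40, adjusted p = 0.0365). Summed over the 14 neutrophil markers, the signal was 3480 to 5318 after freezing, against 904 to 2479 after contraction. S100a8 and S100a9, named above from this same comparison, carry a large part of this sum. It therefore adds no separate support.

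The 4 genes named as lower after freezing included a chaperone and a stress gene. Of the 29 heat shock chaperones 1 was called lower than after contraction and none higher, where 0.0723% of all genes were called lower. The list median of this difference was -0.67, and 2 of the 29 differences were above 0. Without sample 436, 6 chaperones were called lower, where 0.607% of all genes were. Dnajb1 had 127, 2986 and 85.2 after freezing, against 5869.9, 3607 and 3760.5 after contraction (log2 -3.64 ± 0.72, adjusted p = 0.03), and the frozen array 432 came close to the contraction arrays while the other frozen arrays stayed near controls. Enah, a regulator of actin filament growth, had 425, 2139 and 613 after freezing, against 3884, 2398 and 2353 after contraction (log2 -1.74 ± 0.38, adjusted p = 0.0494). Jun had 165, 207 and 111 after freezing, against 563, 338 and 546 after contraction (log2 -1.51 ± 0.28, adjusted p = 0.0207) and Sesn1, a stress-induced inhibitor of mTORC1, had 246, 402 and 224 after freezing, against 896, 853 and 585 after contraction (log2 -1.40 ± 0.25, adjusted p = 0.0206). For 3 further genes, chosen after their values were seen, no difference was called. Ankrd1 had 6339, 5739.6 and 5616 after freezing, against 6731, 6982 and 7658 after contraction (log2 -0.27, adjusted p = 0.893), and Rcan1 had 5902, 5444 and 6276 after freezing, against 5479.6, 5370.4 and 4737 after contraction (log2 0.18, adjusted p = 0.894). Myod1 had 2679, 2212 and 2922 after freezing, against 2224, 2197 and 1649 after contraction (log2 0.37, adjusted p = 0.874). A p above the threshold does not show that these genes were equal.

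**Figure D4:**
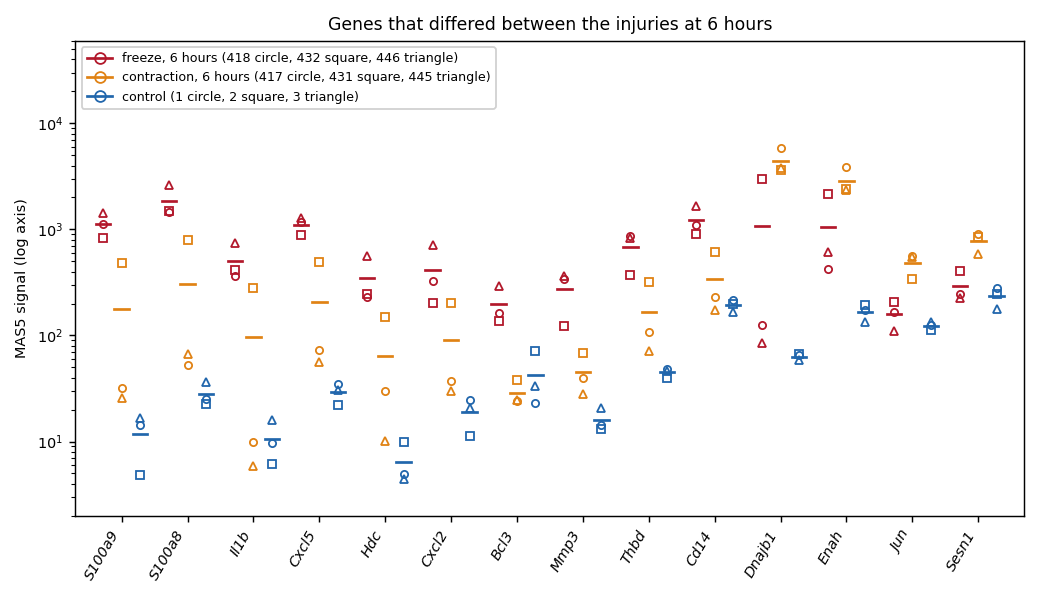
MAS5 signal on a log axis of the 14 genes that differed between freeze and contraction at 6 hours by the naming rule, with frozen arrays in red, contraction arrays in orange and controls in blue. Symbols are single arrays (n = 3 per group) and bars are group means. Frozen arrays lie above contraction arrays for the first 10 genes and below them for the last 4.

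The response at 6 hours was then compared with freezing at 1 day, again with the same frozen arrays. By 1 probe set per gene 94 genes were higher at 6 hours (1.36%) and 177 lower (2.56%), or 428 (6.19%) and 692 (10.0%) without sample 436. The 339 called probe sets (3.57%) became 1402 without sample 436 (14.7%) and 124 to 264 when 1 of the 6 arrays was left out. Some early response genes were higher at 6 hours than at 1 day. With all arrays, 5 of 16 AP-1, ATF and EGR genes were called higher and none lower. So were 7 of 37 other immediate early genes and 4 of 29 heat shock chaperones, again with none lower. Without sample 436 these counts were 7, 15 and 8, and 2 of the 37 were called lower. Rrad, the largest rise over controls, was not called (log2 1.15, adjusted p = 0.284). Hspa1a had 6026, 11839 and 1418 at 6 hours, against 376, 234 and 325 at 1 day (log2 3.87 ± 0.55, adjusted p = 0.000366), Fos had 2035, 5259.5 and 2178 at 6 hours, against 268, 260.4 and 189 at 1 day (log2 3.52 ± 0.45, adjusted p = 9.97e-05) and Egr1 had 2649, 1929 and 2680.1 at 6 hours, against 408, 253 and 482 at 1 day (log2 2.66 ± 0.29, adjusted p = 1.2e-05). Btg2 had 3132, 3031 and 3561 at 6 hours, against 595, 371 and 498 at 1 day (log2 2.72 ± 0.22, adjusted p = 3.62e-07) and Cebpd had 2777, 2239 and 2509 at 6 hours, against 344, 401 and 449 at 1 day (log2 2.62 ± 0.25, adjusted p = 2.64e-06), both with tight groups that did not overlap.

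Other early genes were not called between the times. Ccl2 had 1395, 878 and 2394 at 6 hours, against 2377, 2461 and 2173 at 1 day (log2 -0.70), Mt1 had 10111, 4228 and 8075 at 6 hours, against 5698, 3453 and 6227 at 1 day (log2 0.50) and S100a8 had 1447, 1475 and 2644 at 6 hours, against 1124, 1539.7 and 2004 at 1 day (log2 0.23). The genes named next were lower at 6 hours than at 1 day. Arg1 had 99.9, 42.2 and 63.7 at 6 hours, against 747, 1305 and 1092 at 1 day (log2 -3.73 ± 0.43, adjusted p = 2.43e-05), although it had already risen over controls at 6 hours. Cks1b, a subunit of cyclin-dependent kinases, had 12, 10.9 and 13 at 6 hours, against 135, 204 and 226 at 1 day (log2 -2.98 ± 0.68, adjusted p = 0.0165), and the leukotriene B4 receptor gene Ltb4r1 had 28.4, 38.7 and 38.3 at 6 hours, against 204, 216 and 264 at 1 day (log2 -2.32 ± 0.25, adjusted p = 1.06e-05). The macrophage receptor genes Mrc1 and Stab1 had log2 differences of -2.47 and -2.35. The calls of Mrc1 and Stab1 were lost without any single one of the 6 arrays, with adjusted p = 0.0553 to 0.119, and that of Cks1b without 418, 432, 460 or 464, with adjusted p = 0.0543 to 0.0752. Of 30 monocyte and macrophage markers none was higher and 1 was lower at 6 hours, at a median of -1.48, and 21 were lower without sample 436.

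**Figure D5:**
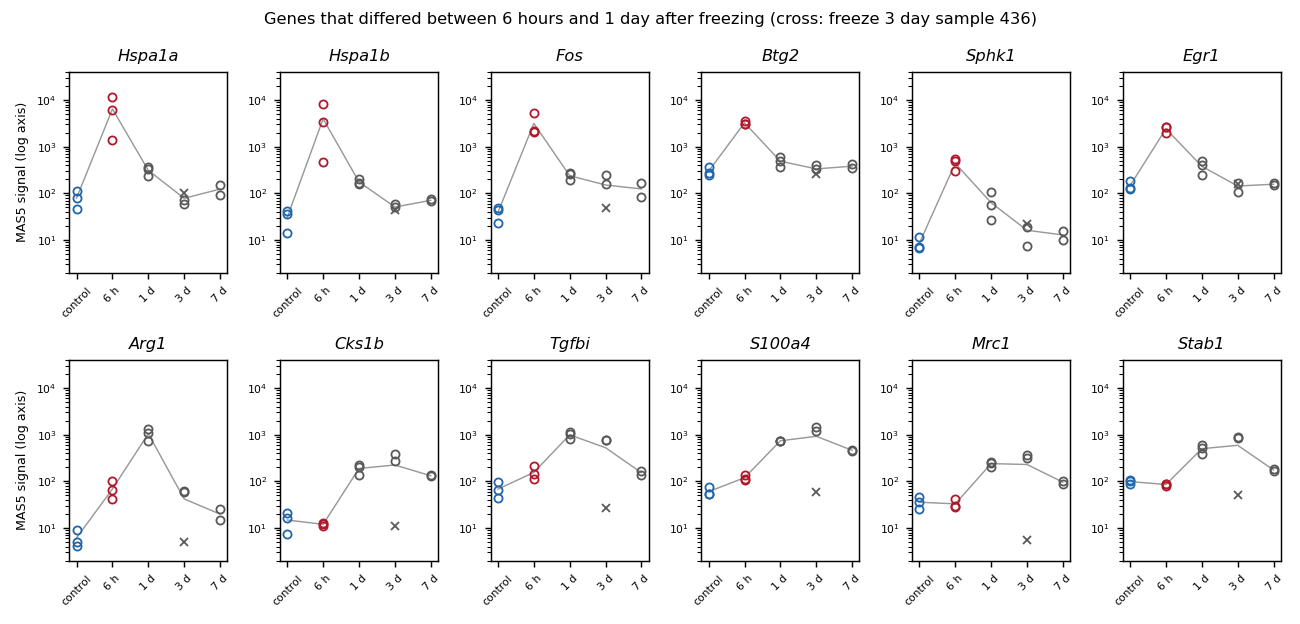
MAS5 signal on a log axis in controls and in muscles frozen 6 hours to 7 days earlier, for 6 genes higher (top) and 6 lower (bottom) at 6 hours than at 1 day. Each symbol is an array (2 at 7 days, 3 otherwise), and the line joins group means. The cross is sample 436, which lay among the controls and is included in the group mean at 3 days. For Mrc1 the 3 day signals were 5.6 on 436, 370 on 450 and 313 on 468. The top genes are highest at 6 hours, whereas Cks1b, Mrc1 and Stab1 are still at the level of controls then.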

How the data were processed

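RNA from 25 muscle samples was hybridised to Affymetrix MG-U74Av2 arrays, 1 array per sample. The deposited values are linear intensity, MAS5 signals that the authors made per the submitters' processing notes; a version is not given in the sources used here. The deposited columns had trimmed means of 150.09 to 150.13, so the authors' scaling was kept. Of 12488 probe sets, 66 are controls, 10833 have 1 gene symbol, 396 several and 1193 none.

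Values became log2(signal + 13), 13 being the 20th percentile. A probe set was kept if it exceeded its array's 40th percentile on 2 or more arrays (9506, for 6919 genes, of which 6916 have a representative). Group means of all 25 arrays were fitted with limma 3.58.1 (R 4.3.3; lmFit, eBayes with trend; 16 residual degrees of freedom), with Benjamini-Hochberg adjustment and a threshold of 0.05. Tables and figures used Python 3.11.15, pandas 2.3.3 and matplotlib 3.10.9. The scripts were tested on simulated data. The number of arrays limits the precision. All 25 columns were matched to a sample.

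Where a gene had several probe sets, the one brightest on average over all arrays stood for it. Named genes are the 15 largest rises and falls against controls and the 10 largest each way in the other comparisons (called, at least 2-fold, groups not overlapping), plus, per list, up to 4 called members each way and up to 4 that were not called. Of 135 genes so named, 25 have several probe sets, of which some but not all were called for 11. Myh4, Ckm, Actn3, Lyz2, Csf1r, C1qa, Mpo, Camp, Hspd1, the uncalled clock genes, the genes set side by side without a call and the 10 genes of the other observations were chosen after their values were seen. The members and the 52 lists were chosen with earlier results of these data known. There were 15 alternatives beside 12 leave-one-out settings.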

Additional observations from a re-analysis of the deposited data

Results flagged for a closer look

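For 24 genes the test of the difference between freezing and contraction at 6 hours passed the threshold, and the 14 of them kept by the naming rule are given here. On the log2 scale, freeze minus contraction, the differences were 3.55 for S100a9, 3.46 for S100a8, 3.29 for Il1b, 2.95 for Cxcl5, 2.60 for Hdc, 2.28 for Cxcl2, 2.26 for Bcl3, 2.22 for Mmp3, 2.13 for Thbd and 1.97 for Cd14. They were -3.64 for Dnajb1, -1.74 for Enah, -1.51 for Jun and -1.40 for Sesn1. Contraction array 431 was the highest of its group for all of the first 10 genes. Frozen array 432 was the highest of its group for all of the last 4. None of the 14 was called without frozen array 446.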

How the results depend on the processing

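No paired analysis was possible because the replicate numbers of controls (1, 2 and 3) and of frozen muscles (418, 432 and 446) do not match. Numbers of frozen and contraction muscles adjoin (418 and 417, 432 and 431, 446 and 445) without being shared, the labels do not say that they mark pairs, and no block was fitted on them. For freeze against control, the 461 called probe sets became 1083 without sample 436, 929 with array weights and 244 at an adjusted p under 0.01, and 273 to 406 when 1 array was left out. All 461 were among the 1083. A fit of the compared groups alone called 486, of which 332 were among the 461. For freeze against contraction, the 29 became 12 and 46 with pseudocounts of 1 and 50, 18 with a floor at 13, 17 without a filter, 17 with a filter on 12 arrays, 1 with only the compared groups, 224 without sample 436, 295 with array weights and 2 at an adjusted p under 0.01. The 1 probe set called with only the compared groups was not among the 29. Leaving out 1 array gave 0 to 83. For 6 hours against 1 day, the 339 became 1134 with only the compared groups, 1402 without sample 436, 1534 with array weights and 87 at an adjusted p under 0.01, and 124 to 264 when 1 array was left out. The causes were not tested beyond the residual SD, whose median was 0.385 with and 0.323 without sample 436. Of the named genes called against controls none changed direction in any setting tried, while 2 that were not called did when 1 array was left out, Cks1b (log2 -0.13 with all arrays, up to 0.02) and Mrc1 (log2 -0.08 with all arrays, up to 0.07). Among the 135 named genes, not all of which were called against controls, 32 lost their call without array 446, 23 without 418 and 11 without 432. Leaving out control 1, 2 or 3 cost 18, 14 and 22 calls. Signals near the pseudocount of 13 limit the folds of dim genes: of the 52 genes that rose at least 8-fold, 14 had control means under 13.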

Other observations

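Of the 251 genes that rose 137 are in the lists, as are 14 of the 121 that fell. Outside them, Sertad1, a co-regulator of E2F factors, had 331, 231 and 480.4 in frozen muscles, against 21.9, 8.8 and 7.4 in controls (log2 3.79 ± 0.31, adjusted p = 2.96e-08). Ifrd1, a co-regulator of muscle regeneration in mice, had 749, 1301 and 1279 in frozen muscles, against 119, 136 and 99.4 in controls (log2 3.06 ± 0.38, adjusted p = 1.15e-05). Pdpn, the mucin-like podoplanin, had 359, 228 and 467 in frozen muscles, against 31.9, 34.3 and 27.6 in controls (log2 2.99 ± 0.49, adjusted p = 0.000493). Saa3, an acute phase protein, had 523, 169 and 400 in frozen muscles, against 41.9, 62.9 and 8 in controls (log2 2.95 ± 0.51, adjusted p = 0.000783), and Clec4d, a lectin receptor of myeloid cells, had 149, 122 and 246 in frozen muscles, against 14, 4.5 and 1.8 in controls (log2 3.22 ± 0.67, adjusted p = 0.00458). Klf5, a zinc finger factor, had 276, 314 and 350.1 in frozen muscles, against 54.6, 12.4 and 46.7 in controls (log2 2.80 ± 0.32, adjusted p = 4.9e-06). Tubb6, a beta tubulin, had 1935, 1085 and 2163 in frozen muscles, against 250.1, 208 and 146 in controls (log2 2.99 ± 0.60, adjusted p = 0.00354). In all 7 genes each frozen array lay above each control.

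Among falls outside the lists, Sparcl1, a matricellular protein of vessels, had 229.6, 211 and 216 in frozen muscles, against 497, 644 and 510.4 in controls (log2 -1.27 ± 0.25, adjusted p = 0.00305). Nicn1 had 27, 32.3 and 58.6 in frozen muscles, against 112, 125 and 106 in controls (log2 -1.33 ± 0.26, adjusted p = 0.00264) and Itfg1 had 91.4, 69.5 and 108 in frozen muscles, against 222, 205 and 220.2 in controls (log2 -1.17 ± 0.24, adjusted p = 0.00413). These 10 genes were chosen after their values were seen.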
